A study of Mus musculus with 9 samples.

Results

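Runx3 and Runx1 were examined as 2 windows of the genome in 3 mouse pancreatic cancer cell lines. Each window took the gene with 100 kb on both sides, in mm9 coordinates. The Runx3 window ran from 134575000 to 134835000 on chromosome 4 (260 kb, gene span 134675000 to 134735000), and the Runx1 window from 92500000 to 92930000 on chromosome 16 (430 kb, gene span 92600000 to 92830000). All regions of the 9 deposited lists that overlap a window were taken, 96 of 185632 in all, with 41 at Runx3 and 55 at Runx1. The lines were a female line without Kdm6a (female KO), a male line without Kdm6a (male KO) and a male line with Kdm6a (male WT). All came from pancreas of mixed C57BL/6-SV129 mice and were grown untreated in F12/DMEM with EGF. The labels used here give neither age nor the promoter or Cre behind the tumours. H3K4me3, H3K27me3 and H3K27ac were profiled by chromatin immunoprecipitation and sequencing (ChIP-seq), with 1 library per mark and line. There was thus no replicate and no test, each genotype and sex was a single line, and there was no female line with Kdm6a, so sex and genotype cannot be told apart between the female KO and male WT lines.

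RUNX proteins are transcription factors that bind DNA through the Runt domain, together with the partner protein CBFβ. Runx1 is best known for the formation of blood stem cells and also acts in epithelia, and Runx3 is known from T cells, sensory neurons and gastrointestinal epithelium, and has been linked to the spread of pancreatic cancer. Each gene has a distal promoter (P1) and a proximal promoter (P2), the latter within a CpG island. H3K4me3 marks promoters, H3K27ac marks active promoters and enhancers, and H3K27me3, which the demethylase Kdm6a removes, marks genes silenced by Polycomb. Broad runs of H3K27ac are often described as super-enhancers.

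The promoter sequences are shown to set the CG-rich proximal starts beside the distal ones. RefSeq (build GRCm38.p6) lists 2 starts for each gene, 31.9 kb apart in Runx3 and 129 kb apart in Runx1. These sequences were matched by gene symbol and not placed on mm9, so their positions below cannot be compared with those of the regions, and no region is assigned to a start site. The 250 bases before each proximal start, 5′ to 3′, have their CG pairs in capitals, 38 in Runx3 and 27 in Runx1. The Runx3 sequence is at chr4:135152295-135152544 on the plus strand and the Runx1 sequence at chr16:92697330-92697579 on the minus strand.
Runx3 proximal: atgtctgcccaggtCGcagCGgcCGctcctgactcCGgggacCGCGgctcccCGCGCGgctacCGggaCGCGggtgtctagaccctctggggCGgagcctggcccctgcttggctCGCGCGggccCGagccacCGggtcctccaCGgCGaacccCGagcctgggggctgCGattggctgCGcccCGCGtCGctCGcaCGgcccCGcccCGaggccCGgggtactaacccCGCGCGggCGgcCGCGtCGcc
Runx1 proximal: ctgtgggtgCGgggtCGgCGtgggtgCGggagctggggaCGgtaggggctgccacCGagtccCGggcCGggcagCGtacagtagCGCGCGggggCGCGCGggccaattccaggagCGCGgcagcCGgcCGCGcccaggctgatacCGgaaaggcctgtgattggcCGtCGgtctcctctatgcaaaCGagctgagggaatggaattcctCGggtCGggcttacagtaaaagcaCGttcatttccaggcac

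In the windows of 300 bases (250 before and 50 after the start), the proximal promoters of Runx3 and Runx1 held 45 and 35 CG pairs. The median of 32841 promoters was 7, and 1.93% and 6.95% of them held at least as many. The distal promoters held 8 and 2. RUNX proteins bind TGTGGT, which reads ACCACA on the other strand. Both strands were searched. Each distal promoter held 2 matches and each proximal promoter 0, and 16.8% of all promoters held at least 1 match and 1.81% at least 2. The motif TGANTCA, bound by AP-1, was found in none of the 4 promoters and in 7.81% of all. The 250 bases before the distal start of Runx3, at chr4:135120395-135120644 on the plus strand, are shown with ACCACA in capitals.
Runx3 distal: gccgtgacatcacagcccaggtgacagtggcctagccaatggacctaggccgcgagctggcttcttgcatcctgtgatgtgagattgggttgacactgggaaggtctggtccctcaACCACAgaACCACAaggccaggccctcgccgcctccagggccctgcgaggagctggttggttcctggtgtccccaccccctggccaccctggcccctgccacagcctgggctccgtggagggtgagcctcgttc

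Both distal promoters shared a run of 18 bases around the pair of motifs, a search added after the motif matches were seen. It lies at bases -136 to -119 from the start in Runx3 and 27 to 44 after the start in Runx1. Of all 32841 promoters 4 held it, those of Runx1, Runx2, Runx3 and the predicted gene Gm16225.
Shared run: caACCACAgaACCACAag

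H3K27ac covered most of the Runx3 locus in female KO cells, and almost none of it in both male lines. The female KO list held 8 regions over 144.2 kb of the window, 55.5% of it. The male KO list held 1 region over 9.8 kb, and the male WT list 2 regions over 6 kb. Within the 60 kb gene span the female KO regions covered 43.6 kb, and both male lists covered none. In the 100 kb upstream flank the female KO regions covered 62.4 kb, again with none in both male lists. The male regions lay 150.0 to 159.8 kb from the upstream edge of the gene span, in the downstream flank. There the next protein-coding gene after Runx3 in RefSeq order (GRCm38.p6) is Clic4, which encodes a chloride intracellular channel protein. All 3 lines overlapped at that place.

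**Figure D1:**
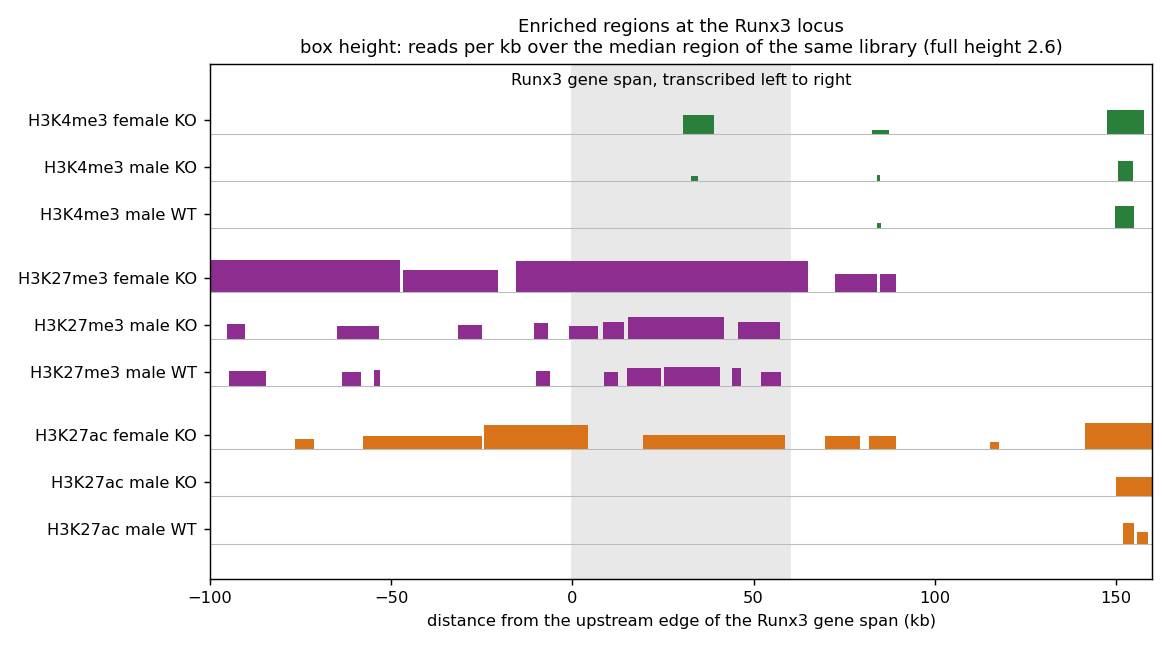
Regions of the 3 marks in the 3 lines, by distance in kb from the upstream edge of the Runx3 gene span (grey). Box height is reads per kb over the median region of the same library. H3K27ac lies over the gene and its upstream flank in female KO cells and at the right edge in all 3 lines. H3K27me3 lies over the gene in all 3 lines.

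The region of female KO cells with the most reads spanned the upstream edge of the Runx3 gene span. It ran from 134650601 to 134679400, 28.8 kb, with 2093 reads, or 72.7 reads per kb. That is 1.57 times the median region of its library, and rank 1046 of 18501 by reads. The longest, from 134694401 to 134733600, took 39.2 kb of the gene span with 1708 reads, 43.6 per kb, or 0.942 times the library's median. The next one upstream ran from 134617401 to 134650000 with 1307 reads over 32.6 kb, 0.867 times the median. The H3K27ac over the gene was thus wide, but at or below the median density of its library away from the upstream edge.

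After overlapping regions of the 3 lists were merged, the Runx3 window held 8 H3K27ac regions. Of these, 7 were in the female KO list alone, a pattern of 10.3% of the 26835 merged H3K27ac regions of the genome, and 1 was in all 3 lists. The female KO counts were then scaled to the male WT library, by reads in the places that all 3 lists hold. Of the 8 female KO regions, 7 then reached the lowest count and the 1st percentile of reads per kb of the male WT list. So did 17619 of all 18501 H3K27ac regions of female KO cells. The 3 named regions, 28.8, 39.2 and 32.6 kb long, then held 1165, 951 and 727 reads. Male WT regions had a median of 121 reads, a lowest count of 11 and a median length of 4.2 kb. Per kb, the 3 regions held 40.4, 24.3 and 22.3 scaled reads, against a median of 29.6 in male WT regions. Only the one at the upstream edge was thus above that median. When the lists were instead given the same covered length, by taking regions from the densest down, 2 of the 8 remained, the one at the upstream edge and the one on the Clic4 side. Of all 18501 H3K27ac regions of female KO cells, 7364 remained.

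H3K27me3 covered the Runx3 gene in all 3 lines, most widely in female KO cells. It took all 60 kb of the gene span in female KO cells, 51 kb in male KO cells and 36.6 kb in male WT cells. The longest region over the gene ran from 134659601 to 134740000 in female KO cells, 80.4 kb with 5407 reads (67.3 per kb). In male KO cells it ran from 134690401 to 134716800, 26.4 kb with 621 reads (23.5 per kb), and in male WT cells from 134700401 to 134715600, 15.2 kb with 284 reads (18.7 per kb). These densities were 1.98, 1.42 and 1.26 times the median region of their libraries. Scaled to male WT by reads in places that all 3 lists hold, they were of like size, 17.6, 17.9 and 18.7 reads per kb. Each is an average over a region of its own length, so they do not compare the same stretch. In the upstream flank the female KO list covered 94.2 kb, the male KO list 28.4 kb and the male WT list 21 kb. The longest female KO region there ran from 134555201 to 134627600 with 5036 reads. In the downstream flank the female KO list covered 21.2 kb and both male lists none.

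Of the 5 merged H3K27me3 regions at Runx3, 2 were in all 3 lists (21.6% of the 32532 in the genome), 2 in the female KO list alone (25.8%) and 1 in both KO lists and not WT (9.7%). That last one ran from 134628401 to 134654600, as 26.2 kb at 48.1 reads per kb in female KO cells and 6.8 kb at 14.9 reads per kb in male KO cells. Over the whole window the cover was longer in male KO than in male WT cells as deposited, 79.4 against 57.6 kb. At equal covered length of the lists, the order turned, and male KO cells covered 5.31 percentage points less than male WT.

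In female KO cells most of the H3K27ac at Runx3 lay within H3K27me3 regions. Both marks were called over 113.8 kb of the window, which is 78.9% of its H3K27ac, against 10.8% of all H3K27ac of that line. Within the gene span the share was 100%. Of 9494 other autosomal windows of the same length, 1 reached 113.8 kb, and the 95th percentile was 13.6 kb. The male KO and male WT lines had no such overlap in the window. Genome-wide, 3.02% and 0.383% of their H3K27ac lay in H3K27me3 regions. The female KO lists were the longest, with 345 Mb of H3K27me3 and 201 Mb of H3K27ac, against 145 and 110 Mb in male WT. At equal covered length, 2 of the 5 H3K27me3 and 2 of the 8 H3K27ac regions of female KO cells at Runx3 remained. The H3K27ac region of 39.2 kb over the gene was not among them. Over the whole female KO lists, 3079 of 21352 H3K27me3 and 7364 of 18501 H3K27ac regions remained. The overlap was not computed for lists of equal covered length. Whether both marks sat on the same chromosomes or in different cells of the line cannot be told apart in such libraries.

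H3K4me3 within the Runx3 gene was strongest in female KO cells, weak in male KO cells and not called in male WT cells. The female KO region ran from 134705401 to 134714000 with 1563 reads over 8.6 kb (182 per kb, 1.25 times the median of its library). In male KO cells 58 reads fell in 1.8 kb, from 134707801 to 134709600 (32.2 per kb, 0.356 times the median). These regions lay 30.4 to 39.0 kb and 32.8 to 34.6 kb inside the upstream edge. No line had H3K4me3 at the upstream edge or in the upstream flank. The merged region was 1 of 594 in both KO lists and not WT, 3.2% of all 18565 merged H3K4me3 regions. It lay in H3K27me3 over its full length in all 3 lines, also in male WT, where H3K4me3 was not called. It also carried H3K27ac over its full length in female KO cells, and none in male KO cells. Of all H3K4me3 regions, 19.5% carried both H3K27 marks in female KO cells, and 12.0% carried H3K27me3 without H3K27ac in male KO cells.

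The other 2 merged H3K4me3 regions of the window were in all 3 lists, as were 65% in the genome. The small one, from 134757601 to 134762400, held 195, 28 and 54 reads in the female KO, male KO and male WT lists. The region on the Clic4 side held 2298 reads over 10.2 kb in female KO cells, 482 over 4 kb in male KO cells and 990 over 5.2 kb in male WT cells. It was free of H3K27me3 and carried H3K27ac in each line. The female KO line had the most reads in both, as it did inside Runx3. After scaling to the male KO library, by reads in places that all 3 lists hold, it still did, but over wider regions. Per kb, the small region held 25.6, 35 and 30.7 scaled reads in the female KO, male KO and male WT lists. On the Clic4 side these values were 142, 120.5 and 130.

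Runx1 differed from Runx3 in that all 3 lines carried H3K27ac over the gene. H3K27ac covered 109.4 kb of the 230 kb gene span in female KO cells, 107.6 kb in male KO cells and 40.4 kb in male WT cells. Over the whole window the lengths were 129.8, 145.2 and 61 kb. The female KO and male KO values were close, and both were more than 2 times the male WT length (2.13 and 2.38). Windows of this length with an H3K27ac region in the KO or male WT list were counted for the 1.5-fold share. Of these, 62.1% (2447 of 3938) were at least 1.5-fold longer in female KO cells than in male WT. For male KO cells the share was 48.4% (2059 of 4256). The difference between the male lines, 19.6 percentage points of the window, was reached by 27 of 5735 other windows. For female KO cells the difference was 16 points, reached by 388. At equal covered length of the lists, the difference between the male lines was 11.3 points.

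**Figure D2:**
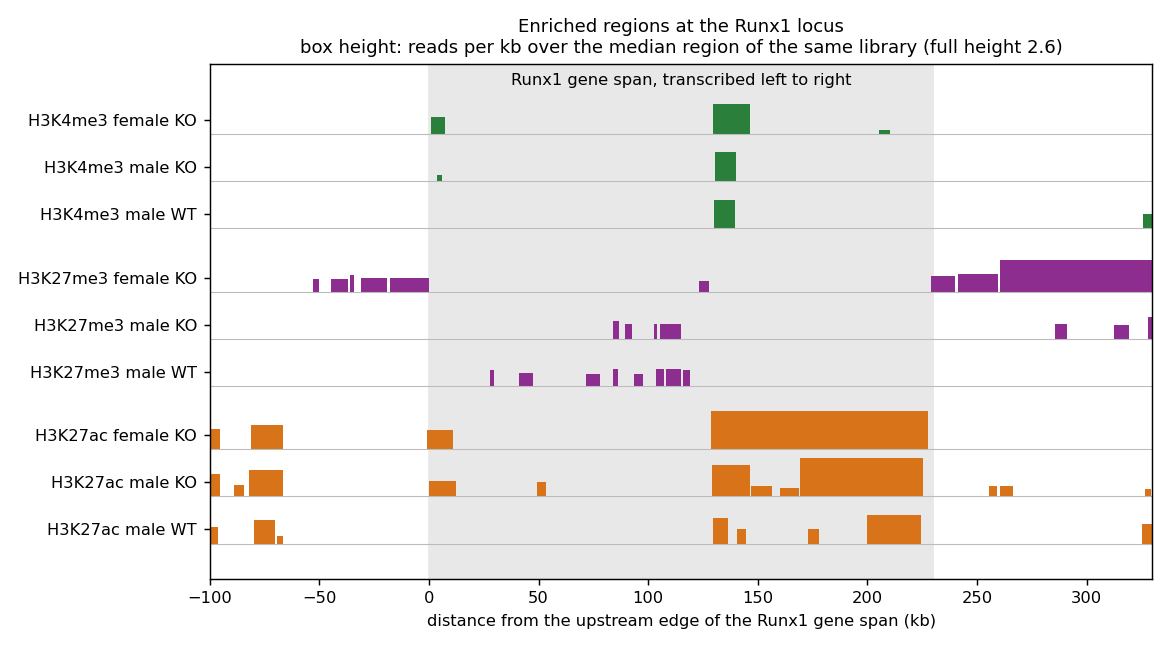
Regions of the 3 marks in the 3 lines, by distance in kb from the upstream edge of the Runx1 gene span (grey), which is drawn in the direction of transcription. Box height is reads per kb over the median region of the same library. H3K27ac forms a block from about the middle of the gene to its end in both KO lines, and shorter pieces of that block in male WT. H3K27me3 leaves that block free in all 3 lines.

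A single H3K27ac region, from 92602601 to 92701200, filled the downstream part of Runx1 in female KO cells. It held 11330 reads over 98.6 kb, 115 per kb, and ranked 22 of 18501 by reads. Its density was 2.48 times the library's median. In male KO cells the same stretch was split into 4 regions. The largest, from 92604801 to 92660800, held 7870 reads over 56 kb (141 per kb, 2.52 times the median, rank 39 of 23965). In male WT cells 4 shorter regions lay there. The largest, from 92605801 to 92630200, held 1348 reads over 24.4 kb (55.2 per kb, 1.87 times the median, rank 178 of 20324). The part near the downstream edge of the gene span was thus among the strongest of each library, also in male WT. Scaled to the depth of male WT, the stretch of 98.6 kb held 6306 reads in regions of female KO cells and 4688 in those of male KO cells, against 1939 in male WT. Regions covered 98.6, 91.4 and 40.4 kb of it, and parts outside regions add no reads. Over the 24.4 kb of the largest male WT region, scaled reads were closer, 1561, 1537 and 1348. The KO values there are averages over wider regions.

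At the upstream edge of the Runx1 gene span, H3K27ac and H3K4me3 were called in both KO lines and not in male WT. The merged H3K27ac region from 92817601 to 92831000 held 703 reads over 11.8 kb in female KO cells and 664 over 12.2 kb in male KO cells. The merged H3K4me3 region from 92822601 to 92829200 held 1101 reads over 6.6 kb (167 per kb) in female KO cells, but 78 over 2.2 kb (35.5 per kb) in male KO cells. These are 1.15 and 0.391 times the median region of each library. The pattern of both KO lists and not WT is found for 9.69% of merged H3K27ac and 3.2% of merged H3K4me3 regions in the genome.

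The strongest H3K4me3 of Runx1 lay inside the gene and was present in all 3 lines. It ran from 92683801 to 92700400 with 4697 reads over 16.6 kb in female KO cells (283 per kb, rank 203 of 14056 by reads). The male KO line had 1669 reads over 9.6 kb (174 per kb, rank 177 of 16908) and male WT cells 2350 reads over 9.8 kb (240 per kb, rank 575 of 15975). Its density was 1.95, 1.92 and 1.83 times the median of its library, so the ratio was of like size in the 3 lines. The regions began 129.6 to 130.4 kb from the upstream edge of the gene span. A weak region from 92619601 to 92624600, with 219 reads, was in the female KO list alone, like 4.5% of merged H3K4me3 regions. No H3K4me3 region of the Runx1 window lay in H3K27me3 in any line.

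Within the Runx1 window, H3K27me3 lay mostly in the flanks in female KO cells and only inside the gene span in male WT. The male KO list had regions both in the gene span and in the downstream flank. Inside the gene span the male WT list had 8 regions over 35.4 kb, the male KO list 17 kb and the female KO list 6.2 kb. All of the male regions inside the gene lay in the upstream part, from 27.8 to 119.2 kb from the upstream edge in male WT. They held 26 to 151 reads each in both male lists, where the median region held 83 reads in male KO and 52 in male WT. Their densities were 0.752 to 1.17 times the median region of their library. In the flanks the order was the other way. The downstream flank was covered over 97.6 kb in female KO cells, 14.2 kb in male KO cells and none in male WT. The upstream flank was covered over 42.2 kb in female KO cells and none in both male lines. H3K27ac and H3K27me3 overlapped over 1.2 kb in female KO cells, 1.4 kb in male KO cells and none in male WT, so the large H3K27ac region was free of H3K27me3.

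The merged H3K27me3 regions of the Runx1 window numbered 17. Of these, 8 were in the female KO list alone (25.8% of the genome's), 5 in male WT alone (12.3%), 2 in male KO and WT (6.25%), 1 in male KO alone (20.9%) and 1 in all 3 lists. In that last one, from 92463401 to 92569400, the male WT part, 5.8 kb with 73 reads, lay outside the window. The female KO regions upstream of the gene had 30.7 to 30.8 reads per kb in the 2 longest, from 92829801 to 92848000 and from 92849001 to 92860800, below the library's median region. After scaling to the depth of male WT, 2 of the 9 female KO regions at Runx1 reached the same limits of the male WT list, both in the downstream flank. Of all 21352 H3K27me3 regions of female KO cells, 7720 reached these limits. The difference over the window then fell from 25.7 to 12.2 percentage points, and to 7.91 with lists of the same covered length. Over the gene span alone it was -12.7 points.

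The downstream border of the Runx1 window held a place where all 3 marks differed between lines. In RefSeq order Clic6, another chloride intracellular channel gene, is next to Runx1 on this side. In male WT, H3K4me3 ran from 92493401 to 92504400 with 1361 reads over 11 kb, and H3K27ac from 92488201 to 92504600 with 603 reads over 16.4 kb. Neither region overlapped H3K27me3 in that line. In female KO cells, H3K27me3 ran from 92463401 to 92569400, 106 kb with 7540 reads, and ranked 351 of 21352 by reads. The female KO lists held 1.8 kb of H3K4me3 (62 reads) and 1.4 kb of H3K27ac (44 reads) there, just outside the window. In male KO cells an H3K27me3 region from 92495001 to 92502000 held 163 reads, H3K27ac of 76 reads covered 3 kb, and H3K4me3 of 37 reads covered 1.6 kb. Both KO lines thus had H3K27me3 where male WT had H3K4me3 and H3K27ac.

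In the upstream flank of Runx1, 2 merged H3K27ac regions without H3K4me3 were in all 3 lists. The first, from 92896401 to 92912200, held 1055 reads in female KO cells, 1487 in male KO cells and 463 in male WT. The second, from 92925201 to 92935800, held 666, 708 and 202. Both had higher counts in the KO lines, which also have more H3K27ac reads in shared places of the genome. Of the 9 merged H3K27ac regions at Runx1, 4 were in all 3 lists (44.6% of the genome's), 4 in the male KO list alone (16.5%) and 1 in both KO lists. In the shared region from 92488201 to 92504600, the female KO part, 1.4 kb with 44 reads, lay outside the window.

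Clusters of H3K27ac were built by joining nearby regions, at the gap commonly allowed in super-enhancer analyses, which lies between the 5 and 25 kb tried as alternatives, and ranked by reads within each line, with the top 500 called large. Runx1 had 1 large cluster in each line and Runx3 had none in any line. The Runx1 cluster ranked 79 of 12539 in female KO cells, 59 of 16273 in male KO cells and 452 of 13467 in male WT. At Runx3 female KO cells had 5 clusters, 3 of them long. The one upstream of the gene and over its edge, 62 kb with 3400 reads, ranked 755. The one over the gene, 69.8 kb with 2400 reads, ranked 1137. The one on the Clic4 side, 64.8 kb with 3412 reads and reaching beyond the window, ranked 751. The best Runx3 ranks of the male KO and male WT lines were 3867 and 5394, both on the Clic4 side.

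**Figure D3:**
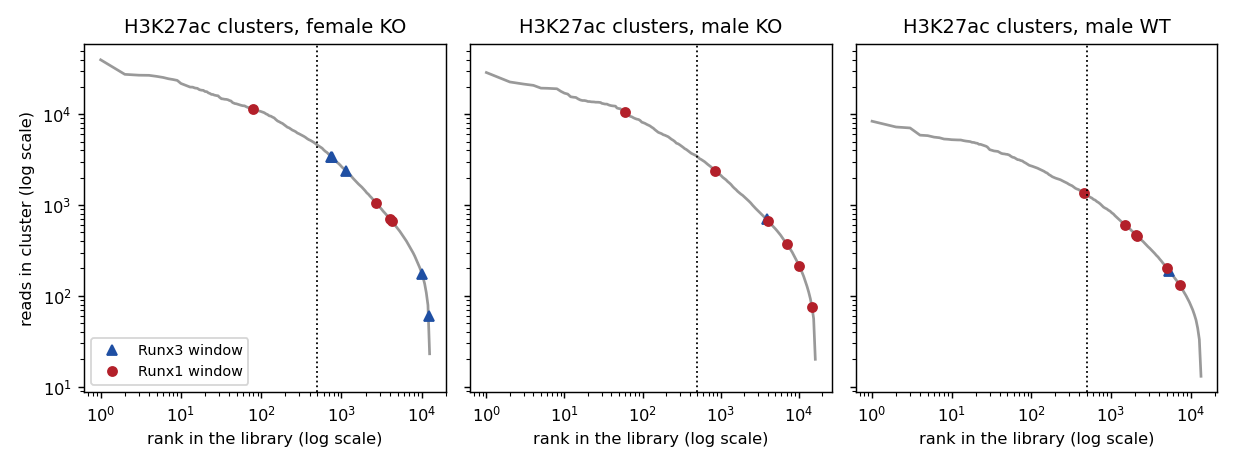
Reads in each H3K27ac cluster against its rank in the library, both on log scales, with 1 panel per line. The grey curve is all clusters, points are clusters of the Runx3 (triangles) and Runx1 (circles) windows, and the dotted line is rank 500. The highest Runx1 cluster is left of the line in each panel, and the Runx3 clusters are right of it.

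The call for Runx3 depends on the joining distance and on the cut. Within 25 kb, 6 regions from 134598401 to 134764200 joined into 1 cluster of 5972 reads at rank 387. With the cut at slope 1 of the scaled curve, added after seeing the data, 835 clusters of female KO cells were large, among them 2 of the Runx3 window. Of these, the one at rank 755 overlapped the gene span by 4.4 kb, and the one on the Clic4 side did not overlap it. When H3K27ac regions with H3K4me3 were left out, the upstream Runx3 cluster ranked 57 of 6147. The highest Runx1 cluster of male KO then ranked 4 of 9056 and that of male WT 29 of 6549. In female KO cells the large Runx1 region overlaps H3K4me3 and drops out as a whole, which leaves rank 647 for the highest of the others. Male WT at Runx1 ranked 540 within 25 kb and 815 by covered length, so it was outside the top 500 there.

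The share of each window under a mark was set beside that of all windows of the same length tiled over the autosomes. For H3K27ac at Runx3 female KO cells exceeded male WT by 53.2 percentage points, a difference reached by 3 of 9494 other windows. They exceeded male KO cells by 51.7 points, reached by 4. At equal covered length of the lists, the difference from male WT was 15.9 points. For H3K27me3 the female KO difference at Runx3 was 45.3 points, reached by 397 windows, and 29.0 points with lists of the same covered length. For H3K4me3 it was 6.62 points, reached by 164 windows. The H3K27ac difference of male KO cells at Runx3 was 1.46 points, reached by 2917 windows.

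**Figure D4:**
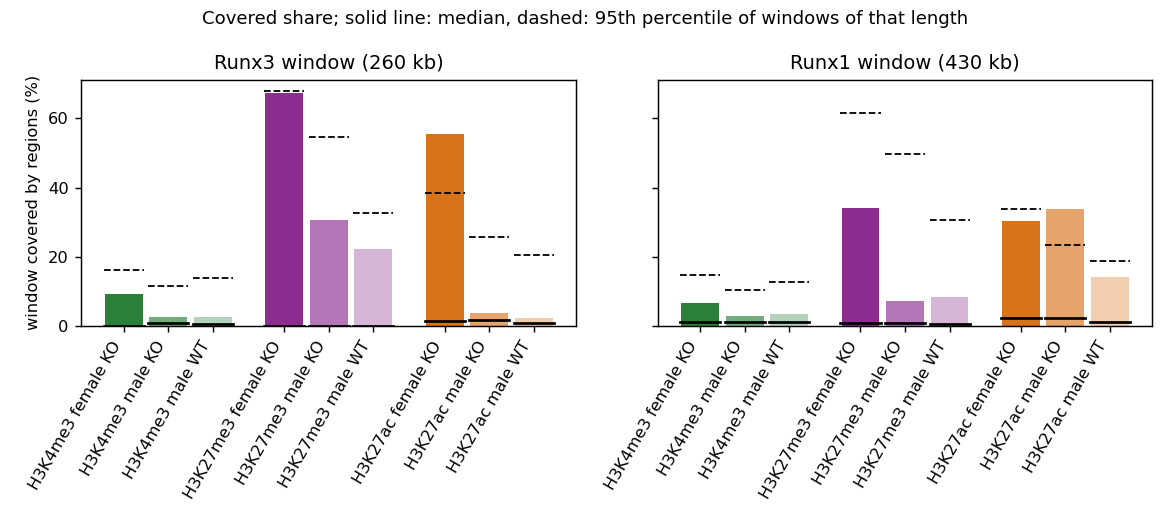
Percentage of the Runx3 and Runx1 windows covered by regions of each mark in each line (bars, from 1 library each). Solid lines are the median and dashed lines the 95th percentile of all autosomal windows of that length in the same library. The bars above their dashed line are H3K27ac of female KO cells at Runx3 (55.5%) and of male KO cells at Runx1 (33.8%).

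**Figure D5:**
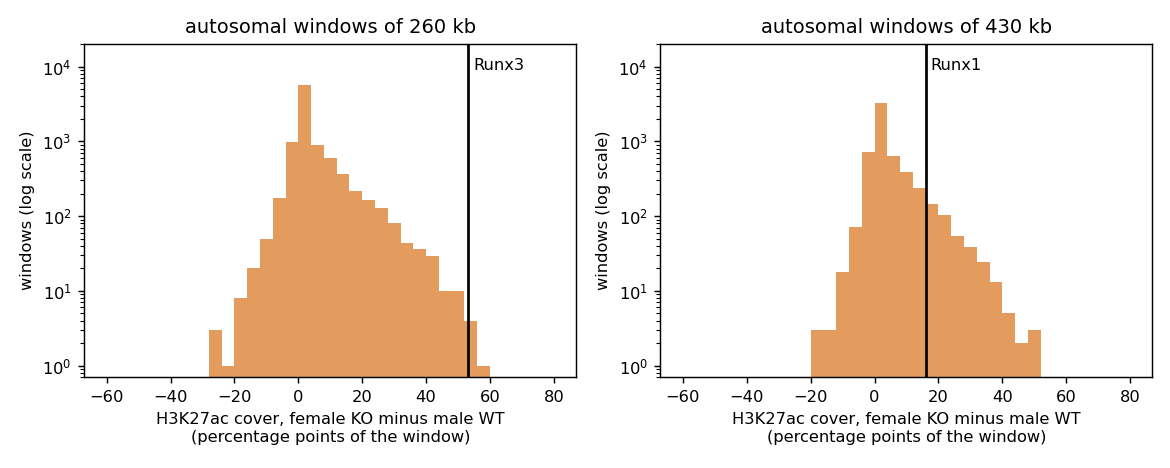
Number of autosomal windows (log scale) by the difference in H3K27ac cover between the female KO and male WT lines, in percentage points. Black lines mark the Runx3 window at 53.2 and the Runx1 window at 16 points.

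Longer cover in a KO line was common among windows with a region of the mark in the KO or male WT list. The shares below are of those windows, not of all windows tiled. Of the 12 comparisons of a KO line with male WT (both loci, 3 marks, both KO lines), 8 were at least 1.5-fold longer in the KO line. At Runx3 these were H3K4me3 of female KO cells (3.69-fold, as in 16.1% of windows), H3K27me3 of female KO cells (3.05-fold, 64.2%), and H3K27ac of the female KO (24.0-fold, 62%) and male KO lines (1.63-fold, 48.8%). At Runx1 they were H3K4me3 (1.99-fold, 14.2%) and H3K27me3 (4.12-fold, 62.8%) of female KO cells, and H3K27ac of both KO lines (62.1% and 48.4%). Those not past the fold were all of male KO cells, H3K4me3 (1.03-fold, 16.9% of windows past it) and H3K27me3 (1.38-fold, 52.4%) at Runx3, and H3K4me3 (0.831-fold, 16.3%) and H3K27me3 (0.881-fold, 50.3%) at Runx1. Since most windows so counted passed for H3K27me3 and H3K27ac of female KO cells, passing the fold sets neither locus apart from them. Of all 9496 windows of the Runx3 length, those that passed numbered 3267 for H3K27me3 and 3517 for H3K27ac. Of all 5737 windows of the Runx1 length, they numbered 2193 and 2447.

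Reads were also compared in places held by all 3 lists of a mark. Each region's count was spread evenly over its length, so where a region is wider than the shared place the value there is an average over the whole region, and the ratio depends on that averaging. Log2 ratios were taken minus the median of windows of the same length with at least 5 kb of such places, with 95% Wilson intervals that cover counting error only. None of 8 ratios reached 2-fold higher in a KO line. Of windows of the Runx3 length, 0.937% and 0.341% were past it for H3K27me3 of the female KO and male KO lines, and 0.372% and 0.186% for H3K27ac. Of windows of the Runx1 length these shares were 0.235% and 0.51% for H3K4me3, and 0.399% and 0.12% for H3K27ac. At Runx1 the H3K27ac ratio over male WT was 0.42 (0.35 to 0.48) for female KO cells and 0.30 (0.23 to 0.36) for male KO cells, over 56 kb. For H3K4me3 at Runx1 the ratios were 0.14 and 0.10 over 9.4 kb. At Runx3 the H3K27me3 ratio was 0.35 (0.24 to 0.47) for female KO cells and -0.01 (-0.15 to 0.12) for male KO cells, over 48.8 kb. H3K27ac at Runx3 could be compared over 6 kb on the Clic4 side, where the ratios were 0.55 and 0.03. The signs depend on the scaling. Centred on chromosome 4 in place of all autosomes, the H3K27me3 ratio of female KO cells at Runx3 turned to -0.29. Scaled by the summed reads of each list, the ratios of female KO cells were below 0 for all 4 pairs of mark and locus, and those of male KO cells for 3 of the 4, all but H3K4me3 at Runx1.

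Reads of female KO cells were also raised around Runx3. In windows within 2.5 Mb of the Runx3 window, the median log2 ratio of female KO cells to male WT was 0.31 for H3K4me3, 0.99 for H3K27me3 and 0.36 for H3K27ac, relative to the autosomal median. For male KO cells these were -0.18, 0.01 and 0.00. Around Runx1 the female KO values were 0.04, 0.19 and 0.06. The medians over all of chromosome 4 were 0.33, 0.64 and 0.35 in female KO cells. Their part in the wider female KO regions at Runx3 was not tested. On chromosome 4, 95% of windows had an H3K27ac difference between female KO and male WT below 25.3 percentage points, less than the 53.2 at Runx3, but for H3K27me3 this limit was 69.2 points, above the 45.3 at Runx3. The libraries held 2396174 to 18507923 reads in regions, which is not their depth. Kdm6a and cell type markers were not checked, since genes were not placed on mm9 here.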

How the data were processed

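ChIP-seq of 3 histone marks was carried out in 3 cell lines, 1 library each. Per the submitters' processing notes, reads were aligned and regions called with Bowtie 1.1.2 and SICER 1 on mm9. SICER joins windows enriched for reads into regions. The authors' deposited lists give each region's position and a whole number, used here as its count of reads. Lists lack a header, so this unit rests on their values. Control library, thresholds and library depth: not given in the sources used here.

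Regions overlapping a window by at least 1 bp were taken. Covered length was computed on bins of 200 bp, and counts were spread evenly over a region. For each mark, overlapping regions of its 3 lists were merged for patterns of presence. Positions are 1-based mm9. For each mark, locus and line the regions with the most reads and the greatest length were named, with merged regions over 5 kb present in only some lists, and clusters among the top 500. The other regions named were chosen after their values were seen. As background, windows of the same length were tiled over the autosomes without overlap. Alternatives were stitching distance, list length, depth, flank, centring and overlap, and the slope cut for clusters was added after seeing the data. Interval arithmetic was tested on simulated data. Tools were matplotlib 3.10.9, scipy 1.17.1, pandas 2.3.3, numpy 2.4.6 and Python 3.11.15. The members and settings were chosen with earlier results of these data known. No p-value was computed, because no group had a replicate. Promoter sequences are from RefSeq, matched by symbol for both genes.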

Additional observations from a re-analysis of the deposited data

Results flagged for a closer look

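In 3 comparisons the female KO and male KO lines moved in opposite directions from male WT. With 1 library per line the difference between them was not tested, and both comparisons share the male WT library. The Runx1 window was covered by H3K27me3 over 25.7 percentage points more in female KO cells than in male WT, and over 0.977 points less in male KO cells (-0.977). For H3K4me3 at Runx1 the differences were 3.26 points in female KO cells and -0.558 in male KO cells. The log2 ratio of H3K27me3 reads in shared places at Runx3 was 0.35 in female KO cells and -0.0106 in male KO cells. The male KO values are all near 0. Their 95% intervals are -2.58 to 0.62 points for H3K27me3 and -1.60 to 0.47 points for H3K4me3 at Runx1, and -0.15 to 0.12 for the log2 ratio at Runx3. The first 2 treat bins of 200 bp as independent, which neighbouring bins are not. The opposite signs were also lost under other settings. For H3K4me3 at Runx1 the male KO difference was 0.606 with flanks of 50 kb and 0.87 without flanks. For H3K27me3 at Runx1 without flanks it was -8, and that of female KO cells was -12.7. The female KO ratio at Runx3 was -0.29 when centred on chromosome 4, and the male KO ratio was 0.058 without flanks.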

How the results depend on the processing

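Of 161 alternative values for 43 results, 92 stayed near the reported value, 55 moved and 14 changed sign. No paired analysis was possible because each mark and line had 1 library. The cause of a change was not tested, except that narrower flanks drop the flank regions, higher limits drop regions and stitching further joins clusters. Library depth is unknown. In places held by all 3 lists, male WT held the fewest reads for H3K27me3 and H3K27ac, and male KO for H3K4me3.

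Values below are percentage points of cover, KO minus male WT. Without flanks the female KO values at Runx3 were 14.3 for H3K4me3, 39 for H3K27me3 and 72.7 for H3K27ac, and the male KO values 3, 24 and 0. At Runx1 they were 8, -12.7 and 30 in female KO cells and 0.87, -8 and 29.2 in male KO cells. With flanks of 50 kb, Runx3 gave 53.1 (female KO) and 13.9 (male KO) for H3K27me3 and 68.8 and 0 for H3K27ac. Runx1 gave 5.58 and 0.606 for H3K4me3, 17.5 and -5.58 for H3K27me3, and 21.2 and 23.3 for H3K27ac. With lists of the same covered length, Runx3 gave 29 and -5.31 for H3K27me3 and 15.9 for H3K27ac of female KO cells, and Runx1 gave 7.91 and -7.12 for H3K27me3 and 11.3 for H3K27ac of male KO cells. With depth-scaled lists, Runx1 gave 12.2 for H3K27me3 of female KO cells and 16.9 for H3K27ac of male KO cells. Keeping regions that reach the median count of their list, Runx3 gave -0.46 for H3K4me3 of male KO cells and 49.5 and 3.77 for H3K27ac, and Runx1 gave 0.093 for H3K27me3 and 16.3 for H3K27ac of male KO cells.

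For the highest H3K27ac cluster, stitching within 25 kb gave ranks of 387 (Runx3, female KO), 122 (Runx1, female KO) and 99 (Runx1, male KO), and within 5 kb 39 (Runx1, male KO). Ranked by covered length, Runx1 was at 202 in the female KO and 815 in male WT cells. With H3K4me3 regions left out, the ranks were 57 for Runx3 in female KO cells and 647, 4 and 29 for Runx1 in the female KO, male KO and male WT lines. The cut at slope 1, chosen after seeing the data, gave 2 large clusters at Runx3 in female KO cells and 2 at Runx1 in male KO cells.

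Log2 ratios in shared bins scaled by reads in all regions were -0.87 and -0.70 for H3K27me3 at Runx3, -0.30 and -0.29 for H3K27ac at Runx3, -0.093 and 0.32 for H3K4me3 at Runx1, and -0.43 and -0.023 for H3K27ac at Runx1, female KO first. Centred on the same chromosome they were -0.29 for H3K27me3 and 0.20 for H3K27ac of female KO cells at Runx3, and 0.18 for H3K27ac of male KO cells at Runx1. Without flanks, H3K27me3 of male KO cells at Runx3 was 0.058.

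Where presence needed at least 50% of the merged region, the count in all 3 lists was 0 for H3K4me3, 1 for H3K27me3 and 0 for H3K27ac at Runx3, and 1, 0 and 2 at Runx1. The count in the female KO list alone was then 4 for H3K27me3 at Runx3 and 2 for H3K4me3 at Runx1. Joining regions closer than 1 kb gave 1 for H3K27me3 of female KO cells alone at Runx3, and depth-scaled lists gave 1 for it at Runx1.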
